A study of Mus musculus with 6 samples.

Results

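The genes Fhl1, Fhl2 and Fhl3 encode LIM-only proteins of the FHL family. They were chosen by gene symbol, as the 3 of 19505 genes measured that carry one of these names, and each was read by 1 probe set. They were set apart with the Fhl1 difference between genotypes already known, so the genotype values of these 3 genes are given as a description without a test. Crypts of the small intestine, the pockets of the lining in which stem cells and Paneth cells sit, were compared between 3 CSN8ΔIEC and 3 CSN8fl/fl samples on a C57bl/6 background, with 1 Affymetrix array per sample. CSN8 is subunit 8 of the COP9 signalosome, which acts on cullin ubiquitin ligases, and its gene is Cops8. By the names of the genotypes, Cops8 was deleted in the intestinal epithelial cells of CSN8ΔIEC mice and was floxed but intact in CSN8fl/fl mice. The labels name no Cre line. In either genotype, replicates 1 and 2 were labelled as females aged 16 weeks and replicate 3 as a male aged 10 weeks. The study asked whether loss of CSN8 disturbs the production of antimicrobial peptides. The labels do not say that each sample came from a separate mouse, and where samples shared one, p-values measure partly technical spread.

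A LIM domain is a zinc-binding fold that holds other proteins, and FHL proteins consist of little else. They have no DNA-binding domain and act as adaptors, at the actin cytoskeleton and integrins on one side and with transcription factors in the nucleus on the other. Fhl1 is X-linked, is abundant in skeletal muscle, and mutations of the human gene cause myopathies; a shorter splice form, KyoT2 in the mouse, binds the Notch effector RBP-J. Fhl2 is known from the heart and as a partner of the androgen receptor and β-catenin, and is a described target of serum response factor (SRF). Fhl3 is a skeletal muscle protein that binds actin. The 1 probe set per gene does not separate splice forms.

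Because Fhl2 is a described SRF target, the 250 bases before the annotated transcript starts of the 3 genes are shown, from RefSeq sequence of build GRCm38.p6. All 3 genes matched that table by symbol, Fhl1 and Fhl2 with 2 starts each and Fhl3 with 1. Capitals mark a CArG box, the motif of SRF, and the core of the antioxidant response element, TGACNNNGC, searched on both strands.
Fhl1, start 1, GRCm38.p6 chrX:56779433-56779682, plus strand: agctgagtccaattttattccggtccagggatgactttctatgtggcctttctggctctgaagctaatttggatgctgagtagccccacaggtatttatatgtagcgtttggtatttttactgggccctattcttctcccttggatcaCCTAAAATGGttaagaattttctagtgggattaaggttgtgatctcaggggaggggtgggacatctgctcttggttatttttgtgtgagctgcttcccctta
Fhl1, start 2, GRCm38.p6 chrX:56786277-56786526, plus strand: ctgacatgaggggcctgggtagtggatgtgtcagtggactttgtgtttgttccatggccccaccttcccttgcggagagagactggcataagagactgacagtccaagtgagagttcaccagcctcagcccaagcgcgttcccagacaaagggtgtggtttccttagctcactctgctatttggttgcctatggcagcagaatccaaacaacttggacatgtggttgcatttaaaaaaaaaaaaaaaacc
Fhl2, start 1, GRCm38.p6 chr1:43196762-43197011, minus strand: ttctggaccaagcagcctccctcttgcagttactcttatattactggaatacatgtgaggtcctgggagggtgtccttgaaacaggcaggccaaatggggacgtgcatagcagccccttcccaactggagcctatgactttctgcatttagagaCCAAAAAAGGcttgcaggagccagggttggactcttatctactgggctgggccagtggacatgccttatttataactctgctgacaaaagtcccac
Fhl2, start 2, GRCm38.p6 chr1:43163962-43164211, minus strand: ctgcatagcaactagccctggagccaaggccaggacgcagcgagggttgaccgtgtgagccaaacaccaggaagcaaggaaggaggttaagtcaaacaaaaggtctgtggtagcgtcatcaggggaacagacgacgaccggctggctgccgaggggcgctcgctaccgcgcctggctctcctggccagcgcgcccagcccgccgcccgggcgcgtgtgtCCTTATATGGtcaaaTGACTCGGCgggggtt
Fhl3, GRCm38.p6 chr4:124700449-124700698, plus strand: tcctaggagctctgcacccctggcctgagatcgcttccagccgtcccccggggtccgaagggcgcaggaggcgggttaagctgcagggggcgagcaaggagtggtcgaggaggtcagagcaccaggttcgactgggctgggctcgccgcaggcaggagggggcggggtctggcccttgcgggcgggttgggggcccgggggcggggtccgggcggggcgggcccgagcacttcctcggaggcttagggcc
A CArG box was found before start 1 of Fhl1, from base -102, and before both starts of Fhl2, from bases -96 and -31 relative to the start. Of all 32841 promoters of this length, 1.47% held one. The antioxidant response element core was found before start 2 of Fhl2, from base -16, and in 10.2% of all promoters. Neither motif was in the window of Fhl3 or before start 2 of Fhl1. In the window of Fhl3 74% of the bases were G or C. The share was 44.4% and 49.2% before starts 1 and 2 of Fhl1, and 50.4% and 63.6% before those of Fhl2. These matches are letters in a window, and binding was not measured.

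The signals of Y-linked genes went against the sex labels: Eif2s3y, a Y-linked gene, stood at 2.81 in CSN8ΔIEC and 4.06 in CSN8fl/fl libraries labelled male, and between 9.61 and 10.1 in the 4 libraries labelled female. Uty and Kdm5d, also Y-linked, had the same pattern, so "labelled male" and "labelled female" are used here as names only. Cops8 averaged 7.69 ± 0.078 in CSN8ΔIEC and 8.19 ± 0.081 in CSN8fl/fl crypts (log2 signal, SD, n = 3 each), a difference of -0.50 ± 0.11 (SE) that did not pass the threshold of 0.05 over all genes (limma, adjusted p = 0.0865). The library of CSN8fl/fl replicate 3 correlated least with the others (mean Pearson r 0.981, against 0.988 to 0.989 for the other 5 libraries over all genes). All 7 pan-epithelial markers measured had mean signals of at least 10.98 where the median of the arrays was 6.70 to 6.76, and none of them passed the test between genotypes.

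Fhl1 was much lower in CSN8ΔIEC crypts. Its log2 signals were 6.22, 6.12 and 5.90 in CSN8ΔIEC replicates 1 to 3, against 9.13, 8.78 and 8.94 in CSN8fl/fl replicates 1 to 3. The 3 CSN8ΔIEC values lay together and far under the 3 CSN8fl/fl values, with a gap of 2.55 between the groups and ranges of 0.325 and 0.351 within CSN8ΔIEC and CSN8fl/fl. The mean was 6.08 ± 0.17 in CSN8ΔIEC and 8.95 ± 0.18 in CSN8fl/fl crypts (SD, n = 3 each), so that the difference was -2.87 ± 0.14 (SE), or 7.30-fold. Among all genes this was decrease number 11 by size. The spread of Fhl1 within genotypes was ordinary, with an SD of 0.171 at percentile 48.1 of all genes.

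The 2 groups overlapped for Fhl2. Its log2 signals were 8.94, 9.11 and 9.15 in CSN8ΔIEC, against 8.79, 9.32 and 9.72 in CSN8fl/fl replicates 1 to 3. The CSN8ΔIEC values fell inside the span of the CSN8fl/fl values, which held both the lowest and the highest library. The means were 9.07 ± 0.11 in CSN8ΔIEC and 9.28 ± 0.47 in CSN8fl/fl (SD, n = 3 each), a difference of -0.21 ± 0.21 (SE). Leaving out CSN8fl/fl replicate 3 gave a difference of 0.011, and leaving out replicate 1 of that genotype gave -0.45. The within-genotype SD of Fhl2, 0.338, was at percentile 91.6 of all genes.

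Fhl3 had log2 signals of 6.75, 6.82 and 7.05 in CSN8ΔIEC, against 7.02, 7.07 and 6.97 in CSN8fl/fl replicates 1 to 3. CSN8ΔIEC replicates 1 and 2 were under all CSN8fl/fl libraries and replicate 3 was within them. The means were 6.87 ± 0.16 in CSN8ΔIEC and 7.02 ± 0.051 in CSN8fl/fl (SD, n = 3 each), a difference of -0.15 ± 0.12 (SE). It was -0.084 without CSN8ΔIEC replicate 1 and -0.24 without CSN8ΔIEC replicate 3.

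The other family members on the array, Fhl4 and Fhl5, are known from the testis, where Fhl5 is a coactivator of CREM. Fhl4 had log2 signals of 4.64, 4.52 and 4.13 in CSN8ΔIEC, against 4.14, 3.78 and 4.90 in CSN8fl/fl, and Fhl5 lay between 2.95 and 3.23 in all 6 libraries, where the dimmest probe sets of the arrays had 2.35 to 2.48. The groups overlapped for both, and neither passed the test (differences 0.15 ± 0.27 and -0.10 ± 0.12, adjusted p = 0.821 and 0.733). The Fhl4 difference was -0.091 when CSN8fl/fl replicate 2 was left out and 0.47 when replicate 3 was.

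**Figure D1:**
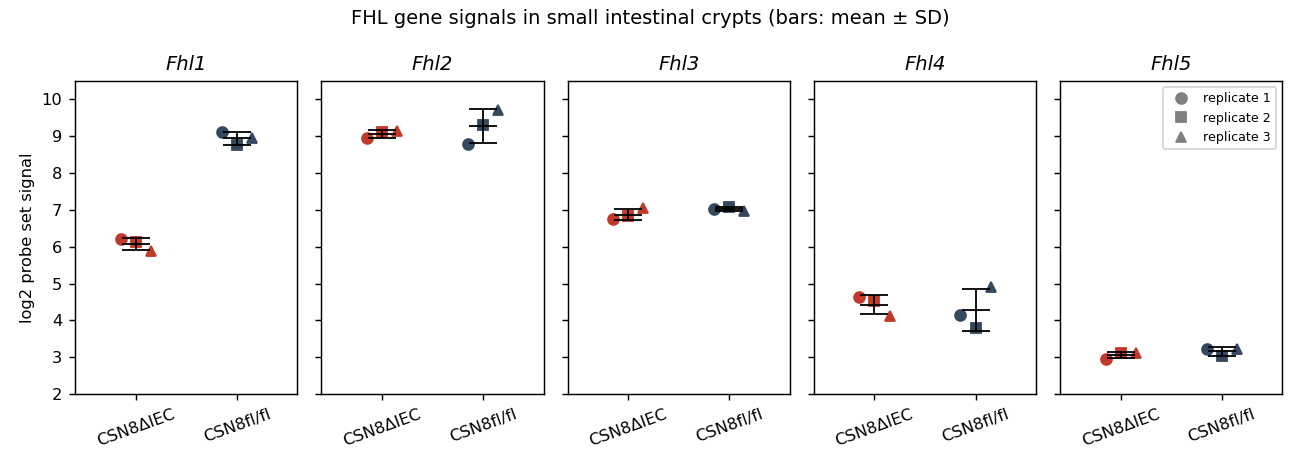
Log2 probe set signal of Fhl1 to Fhl5 in each array, CSN8ΔIEC at the left and CSN8fl/fl at the right of each panel; points are arrays, with the replicate number as the symbol, and bars are mean ± SD. The groups are apart for Fhl1 (5.90 to 6.22 in CSN8ΔIEC, 8.78 to 9.13 in CSN8fl/fl) and overlap in the other panels; levels of different genes come from different probes and are not comparable.

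Of the 3 genes, 1 was past the threshold in the fit over all genes and 1 had groups that did not overlap, where 1.08% of all genes were past the threshold and 22.4% had no overlap. The Fhl1 difference chose the genes, and nothing is read from these counts. Over all genes 210 passed, 137 lower (0.702%) and 73 higher (0.374%) in CSN8ΔIEC, and the median difference was -0.011. An unadjusted p under 0.05 was found for 2918 genes (15%), the share to read the lists further on against. The count of 210 was 41, 122 and 114 without CSN8ΔIEC replicates 1, 2 and 3 in turn, and 109 without CSN8fl/fl replicate 2.

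**Figure D2:**
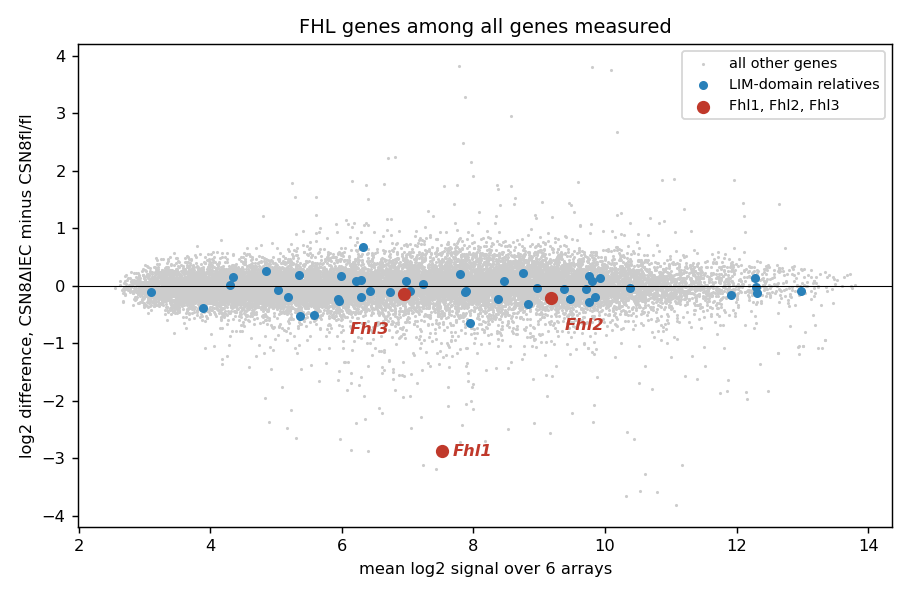
Log2 difference, CSN8ΔIEC minus CSN8fl/fl, against the mean log2 signal over 6 arrays, 1 point per gene, with Fhl1, Fhl2 and Fhl3 in red and the LIM-domain relatives in blue. Fhl1 lies at -2.87, Fhl2 at -0.21 and Fhl3 at -0.15, and the relatives lie between -0.65 and 0.67.

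The Fhl1 difference varied little with the choice of libraries and of processing. It lay between -2.95 and -2.78 over 15 other settings, among them each library left out in turn. It was -2.78 between the libraries labelled female and -3.05 between the pair labelled male. For Fhl2 these were -0.029 and -0.57, and for Fhl3 -0.26 and 0.081. The interaction of genotype with labelled sex and age, a comparison that did not choose the genes, passed for none of them (Fhl1 -0.27 ± 0.28, Fhl2 -0.54 ± 0.35, Fhl3 0.34 ± 0.22, limma adjusted p = 0.764, 0.615 and 0.624). With 1 library labelled male per genotype, its error came from the libraries labelled female alone. No gene of all 19505 passed that test (0%), and 1974 had an unadjusted p under 0.05.

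**Figure D3:**
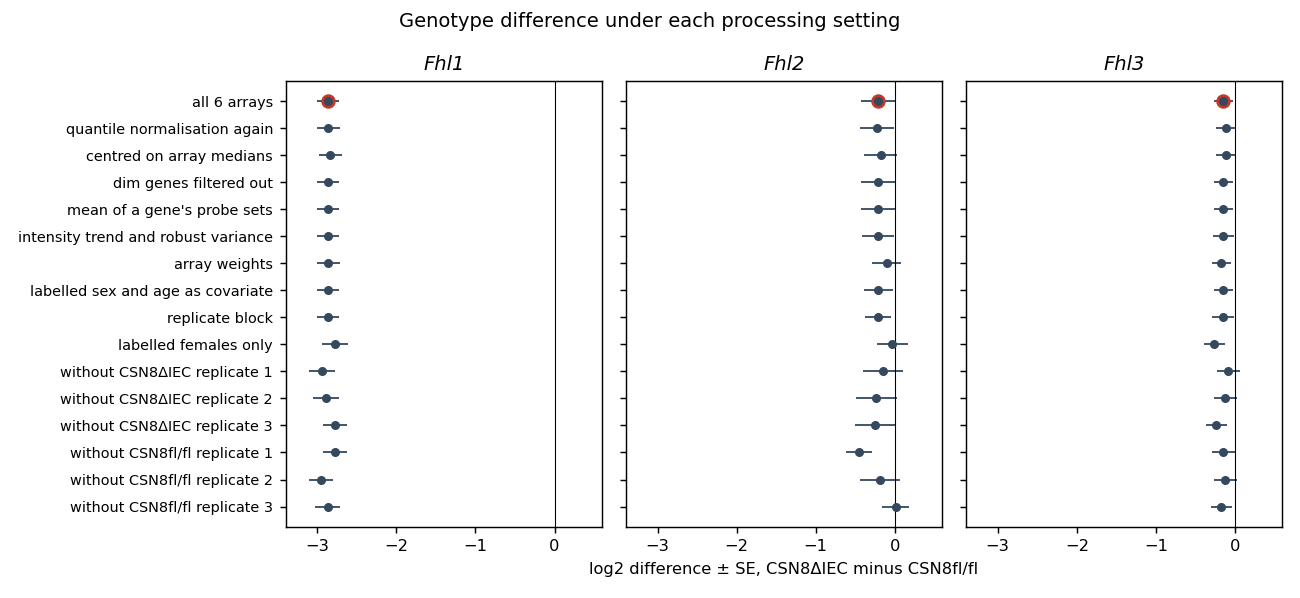
Log2 difference ± SE, CSN8ΔIEC minus CSN8fl/fl, of Fhl1, Fhl2 and Fhl3 with all 6 arrays (red) and under 15 other settings, 1 row each. Fhl1 stays between -2.95 and -2.78, Fhl2 between -0.45 and 0.011 and Fhl3 between -0.26 and -0.084.

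Labelled sex and age, which change together in the labels, were not used to choose the genes and could be tested. Fhl1 differed by -0.14 ± 0.15, Fhl2 by 0.39 ± 0.19 and Fhl3 by 0.095 ± 0.13 (labelled male minus labelled female, 2 against 4 arrays, genotype in the model, SE), with adjusted p of 0.863, 0.778 and 0.898. None of the 3 passed, as against 3 genes (0.0154%) of all, the Y-linked Eif2s3y, Uty and Kdm5d. For Fhl2 the labelled male library was the highest of the 3 in either genotype (9.15 in CSN8ΔIEC and 9.72 in CSN8fl/fl). For Fhl1, on the X chromosome, the labelled male library was the lowest in CSN8ΔIEC (5.90) and the middle one in CSN8fl/fl (8.94).

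Next to Fhl1 on the X chromosome, 1 further gene fell. Ints6l, which encodes an Integrator complex subunit 6-like protein and is the second measured gene before Fhl1 in the gene order of GRCm38.p6, had log2 signals of 4.95, 5.22 and 5.18 in CSN8ΔIEC, against 6.83, 6.57 and 6.87 in CSN8fl/fl. The groups did not overlap, and the difference was -1.64 ± 0.14 (SE, adjusted p = 0.00244), which passed without any 1 library and in every other setting (adjusted p up to 0.0241). The gene between them, Gm648, and those after Fhl1, Map7d3, a microtubule-binding protein gene, and Brs3, a bombesin receptor gene, did not pass (differences 0.12, 0.092 and 0.17, adjusted p = 0.755, 0.797 and 0.712). After these values were seen, the view was widened to 10 measured genes on either side. Of these 20 genes Ints6l alone passed. The differences of the other 19 lay between -0.40 (Slxl1) and 0.28 (Zfp449), with adjusted p of 0.281 (3830403N18Rik) or more, and several had signals near the dimmest of the arrays.

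**Figure D4:**
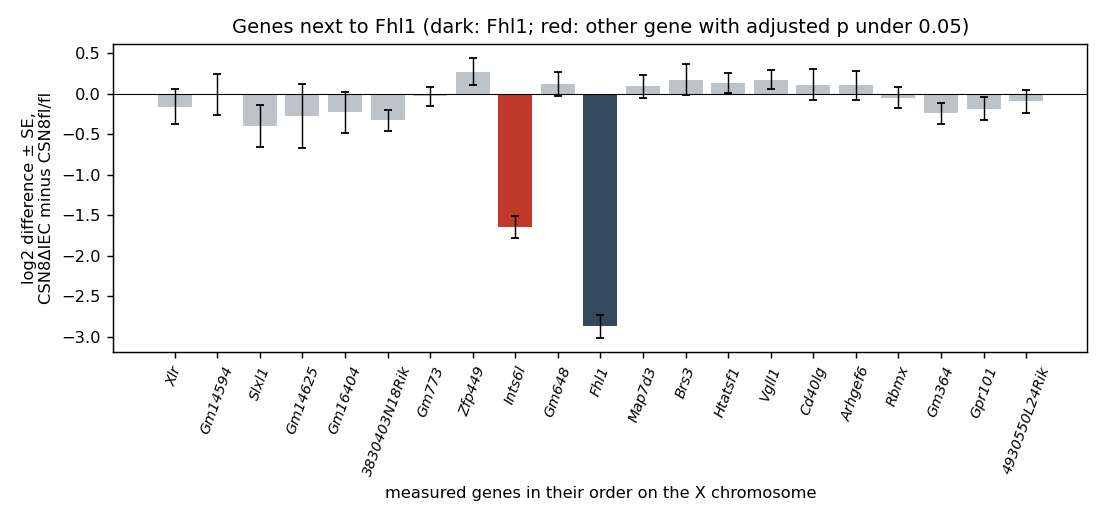
Log2 difference ± SE, CSN8ΔIEC minus CSN8fl/fl, of Fhl1 (dark bar) and the 10 measured genes on either side in their order on the X chromosome. Ints6l (red, -1.64) passed the test, and the others lay between -0.40 and 0.28.

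The 2 measured genes on either side of Fhl2 on chromosome 1 and of Fhl3 on chromosome 4 did not pass the test. By Fhl2 they were Tgfbrap1, AI597479, Nck2 and Ecrg4, with differences from -0.041 (Nck2) to 0.23 (Ecrg4). By Fhl3 they were Pou3f1, Utp11, Sf3a3 and Mtf1, with differences from -0.17 (Pou3f1) to 0.35 (Sf3a3, a splicing factor subunit, adjusted p = 0.298), and Sf3a3 alone of these 8 had groups that did not overlap.

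The genes whose values over the 6 arrays were most like those of Fhl1 were picked by the root mean square difference between log2 values centred on each gene's mean. This measure includes the genotype split, so a low signal in CSN8ΔIEC crypts is part of the choice, and the values are given without a test. Slc16a7, the monocarboxylate transporter MCT2, was closest (0.273), at 3.98 ± 0.25 in CSN8ΔIEC and 6.63 ± 0.13 in CSN8fl/fl. Pipox, a peroxisomal enzyme of pipecolic acid breakdown (0.329), C4bp, the complement C4b-binding protein (0.407), the X-linked Armcx3, a mitochondrial outer membrane protein gene (0.447), and Golm2, a Golgi membrane protein gene (0.486), followed. Their differences were -2.65 for Slc16a7, -2.57 for Pipox, -2.39 for C4bp, -2.31 for Armcx3 and -2.41 for Golm2. Predicted genes and symbols of an accession kind were left out, here and in the counts for Fhl2 and Fhl3 that follow. None of the genes kept came closer to Fhl1 than the within-genotype SD of Fhl1, 0.171. As Fhl1 was decrease number 11 by size, few genes had a difference large enough to come that close. Nothing further about Fhl1 is read from this count.

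Fhl2 and Fhl3 had small differences between genotypes, and many genes came close to them by this measure. For Fhl2 the closest genes were Adam3, Vmn1r238, Med12l, Litaf and Abhd4, at 0.0588 to 0.0794, but 9271 genes were closer than the within-genotype SD of Fhl2, which is wide. For Fhl3 they were Ercc5, Mink1, Srsf12, Tdrp and Oxld1, at 0.0273 to 0.0335, among 1356 genes closer than its SD of 0.117.

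**Figure D5:**
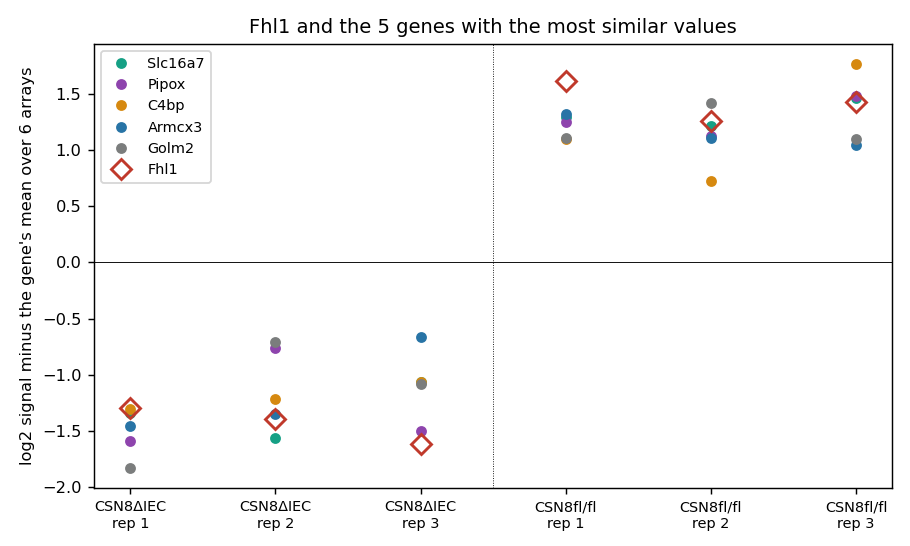
Log2 signal minus the gene's mean over 6 arrays, for Fhl1 (open diamonds) and the 5 genes with the most similar values (points), per array, CSN8ΔIEC left of the dotted line and CSN8fl/fl right of it. All 6 genes lie under 0 in every CSN8ΔIEC array and over 0 in every CSN8fl/fl array.

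Of the LIM-domain relatives of the FHL genes 45 were measured. Past the threshold 1 fell and 0 rose, where 0.702% of all genes fell and 0.374% rose. At such shares few or no passes are likely in a list this short. A count of 0 or 1 therefore says little, here and in the pathway lists that follow. An unadjusted p under 0.05 was found for 5 relatives (15% of all genes), and the median difference was -0.068, where that of all genes was -0.011. Limd2, a LIM-domain protein gene, fell to 7.62 ± 0.024 in CSN8ΔIEC, against 8.28 ± 0.14 in CSN8fl/fl (difference -0.65 ± 0.12, adjusted p = 0.0419). Limd2 did not pass once any 1 library was left out (adjusted p 0.056 to 0.17). The next by p were Prickle2, a planar cell polarity gene (-0.51, adjusted p = 0.0882), Nebl, which encodes the actin-binding protein nebulette (-0.53, adjusted p = 0.197), and Lmo3, a LIM-only transcriptional cofactor gene (-0.38, adjusted p = 0.215). In each of these 4 genes all CSN8ΔIEC values lay under all CSN8fl/fl values, as in 8 of the 45 and in 11.7% of all genes.

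None of the 25 measured genes for described FHL binding partners passed, where 1.08% of all genes did. Their median difference was 0.028, and 4 had an unadjusted p under 0.05, where 15% of all genes had one. The smallest p were those of Nfatc1, a calcineurin-dependent transcription factor (-0.51, adjusted p = 0.0865), Fos (-0.51, adjusted p = 0.26) and Jun (-0.42, adjusted p = 0.299), the components of AP-1, and Sirt1, a deacetylase (-0.31, adjusted p = 0.271). Of 16 Notch pathway genes 0 passed and 1 had an unadjusted p under 0.05, Atoh1, the secretory lineage factor (-0.30, adjusted p = 0.307). The Notch genes had a median of -0.0063.

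Among 23 SRF and MRTF target genes 1 rose and 0 fell (0.374% and 0.702% of all genes), with a median of 0.095 and 3 at an unadjusted p under 0.05. The 1 was Acta2, smooth muscle actin, at 5.85 ± 0.088 in CSN8ΔIEC and 5.19 ± 0.090 in CSN8fl/fl (difference 0.66 ± 0.12, adjusted p = 0.0366). It did not pass once any 1 library was left out (adjusted p 0.0524 to 0.157). Among 22 YAP and TEAD target genes 1 fell, Myof, which encodes the membrane repair protein myoferlin, at 5.37 ± 0.35 in CSN8ΔIEC and 6.70 ± 0.064 in CSN8fl/fl (difference -1.33 ± 0.17, adjusted p = 0.0129), and 0 rose. Myof passed without any 1 library. The median of the YAP and TEAD targets was -0.0041, and 2 had an unadjusted p under 0.05. Of 15 Wnt target genes 1 fell, Prox1, a homeobox factor (difference -1.13 ± 0.16, adjusted p = 0.0184; 0.0971 without CSN8ΔIEC replicate 1 and 0.0567 without CSN8ΔIEC replicate 2), 0 rose, and the median was 0.19. The Wnt targets had 7 of 15 at an unadjusted p under 0.05, the highest count of the 6 pathway lists, where 15% of all genes had one. In 4 of them all CSN8ΔIEC values lay over all CSN8fl/fl values (10.7% of all genes), without passing over all genes. These were Cd44, a cell adhesion receptor (difference 1.06, adjusted p = 0.0604), Ascl2, which encodes a crypt base transcription factor (0.73, adjusted p = 0.0983), Tnfrsf19, a receptor also called Troy (0.55, adjusted p = 0.136), and Myc (0.76, adjusted p = 0.195), the last named after its value was seen. With CSN8ΔIEC replicate 2 left out Cd44 passed (adjusted p = 0.0205), and with CSN8fl/fl replicate 1 left out Ascl2 did (adjusted p = 0.0362). In 2 Wnt targets, Prox1 and Apcdd1 (-0.23, adjusted p = 0.43), all CSN8ΔIEC values lay under all CSN8fl/fl values (11.7% of all genes). Of the 15 differences 8 were above 0 and 7 below, among the latter Nkd1 (-0.51, adjusted p = 0.249), Lgr5 (-0.024) and Sox9 (-0.014). Apcdd1, Nkd1, Lgr5 and Sox9 were also named after their values were seen.

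No marker of muscle, fibroblasts, pericytes or endothelium, cells the crypt preparation could hold besides epithelium, fell past the threshold. Of all genes 0.702% did, so that 0 is likely in lists this short and says little about these cells. An unadjusted p under 0.05 (15% of all genes) was found for 2 smooth muscle, 3 skeletal and cardiac muscle, 1 fibroblast and pericyte and 2 endothelial markers. In the same order of lists, all CSN8ΔIEC values lay under all CSN8fl/fl values in 1, 2, 0 and 1 markers (11.7% of all genes). They lay over them in 2, 0, 2 and 2 markers (10.7% of all genes). The mean log2 signal of the 11 smooth muscle markers was 5.50 to 5.70 in CSN8ΔIEC and 5.43 to 5.59 in CSN8fl/fl libraries, with 1 that rose, Acta2, and 0 that fell. Acta2 did not pass once any 1 library was left out, and 4 of the 11 differences were below 0. Des, the next by p, lay at 3.99 ± 0.071 in CSN8ΔIEC and 4.48 ± 0.14 in CSN8fl/fl without overlap (difference -0.49 ± 0.12, adjusted p = 0.113). The mean log2 signal of the 11 skeletal and cardiac muscle markers was 6.104 to 6.218 in CSN8ΔIEC and 6.225 to 6.28 in CSN8fl/fl. The groups did not overlap in this mean, 8 of the 11 differences were below 0, and 0 were past the threshold. Mylpf (-0.47, adjusted p = 0.188) and Acta1 (0.57, adjusted p = 0.223) had the smallest p. The mean log2 signal of the 11 fibroblast and pericyte markers was 6.15 to 6.39 in CSN8ΔIEC and 6.01 to 6.09 in CSN8fl/fl. Of these 11 differences 10 were above 0, and 0 were past the threshold. Of the 9 endothelial markers, 1 rose, the lymphatic hyaluronan receptor Lyve1 (difference 1.09 ± 0.14, adjusted p = 0.00996).

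No member of the T cell and intraepithelial lymphocyte (9 measured), B cell and plasma cell (6), myeloid (9) or enteric nerve and glia (7) lists passed. As 1.08% of all genes passed, 0 is likely in lists this short. In the order of these lists 3, 2, 3 and 1 members had an unadjusted p under 0.05, where 15% of all genes had one. Among the 9 lymphocyte markers 7 differences were below 0, as were 10110 of 19505 over all genes. In 4 of the 9 all CSN8ΔIEC values lay under all CSN8fl/fl values (11.7% of all genes). The difference of Ptprc, the leukocyte antigen CD45, was -1.05 (adjusted p = 0.106). Kit, a receptor kinase on the myeloid list that other cells also carry, differed by -1.18 (adjusted p = 0.079). Kit passed in 2 of 15 other settings, with labelled sex and age as covariate (adjusted p = 0.0328) and with the replicate block (adjusted p = 0.0449). Without CSN8fl/fl replicate 3, 2 of the B cell and plasma cell markers passed.

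The mean signals of the tuft, Paneth and goblet cell marker lists were lower in every CSN8ΔIEC library than in any CSN8fl/fl library, as that of Fhl1 was. The skeletal and cardiac muscle list had the same order, with a far smaller gap between the groups. Differences in both directions were held by the goblet cell list and by the other epithelial lists. Over all genes 0.702% fell and 0.374% rose past the threshold, and 10110 of 19505 had differences below 0. All lists were chosen with earlier results of these data known. All 11 tuft cell markers measured had differences below 0, 4 of them past the threshold, with mean log2 signals of 6.09 to 6.18 in CSN8ΔIEC and 7.30 to 8.85 in CSN8fl/fl libraries. The tuft cell mean was highest in CSN8fl/fl replicate 3 (8.85, against 7.30 and 7.48 in replicates 1 and 2), while Fhl1 in that library (8.94) lay between the other CSN8fl/fl libraries. All 14 Paneth cell markers measured had differences below 0, 9 of them past the threshold, with means of 9.92 to 10.85 in CSN8ΔIEC and 11.89 to 12.07 in CSN8fl/fl. Of the CSN8ΔIEC libraries, replicate 3 had the highest Paneth cell mean (10.85, against 10.25 and 9.92) and the lowest Fhl1 signal (5.90). Of the 12 goblet cell markers 5 fell, with means of 10.62 to 10.75 in CSN8ΔIEC and 11.16 to 11.48 in CSN8fl/fl. Their differences were below 0 for 11 and above 0 for 1, Agr2 (0.14). Among CSN8ΔIEC libraries the goblet cell mean was also highest in replicate 3 (10.75, against 10.68 and 10.62). Without CSN8ΔIEC replicate 1 the calls were 0 tuft cell, 2 Paneth cell and 1 goblet cell markers. The tuft cell count was also 1 and 2 without CSN8ΔIEC replicates 2 and 3 and 2 without CSN8fl/fl replicate 2, and the goblet cell count was 1 to 3 without any 1 library. Of the 11 enteroendocrine markers 2 rose, Tac1, the substance P precursor (difference 1.41, adjusted p = 0.0167), and Cck, cholecystokinin (0.79, adjusted p = 0.0487, named after its value was seen), and 1 fell, Sst, somatostatin (-1.10, adjusted p = 0.0164; 0.0875 and 0.0514 without CSN8ΔIEC replicates 1 and 3). The enteroendocrine count of 3 was 1 without either of those libraries. Of the 9 stem cell markers 1 fell, the urea transporter gene Slc14a1 (-1.39, adjusted p = 0.00244), and 7 had differences above 0. Of the 11 enterocyte markers 0 passed, 3 had an unadjusted p under 0.05 and 9 had differences below 0. Fewer cells of a type and less RNA per cell cannot be told apart in these samples, and the part of these cell types in the Fhl1 difference was not tested.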

How the data were processed

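The authors deposited log2 signals per probe set, made with RMA, which normalises arrays by quantiles, and with version 6.6 of Partek (per the submitters' processing notes). The sources used here give no settings, genome build or annotation version. The table held 22206 probe sets on 6 arrays. The platform annotation gave 1 symbol for 19572, several for 0, and none for 2634, which stay unnamed; the RefSeq gene table held the gene IDs of all 19572. For 55 genes with several probe sets, the one with the highest mean was used, which left 19505 genes. Arrays have no read depth, and their number limits the precision.

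Genotypes were compared with limma 3.58.1 (lmFit, eBayes, 8.85 residual degrees of freedom after moderation) in R 4.3.3, as CSN8ΔIEC minus CSN8fl/fl, with Benjamini-Hochberg adjustment over all genes and a threshold of 0.05; the procedure was tested on simulated arrays. Tests are two-sided, values are log2 signals, and errors of differences are SE. Further models added labelled sex and age and their interaction with genotype. Genes named were the FHL genes, Cops8, the 4 members with the smallest p of each pathway list and 2 of each marker list (some are not printed), the 5 most similar genes and the 2 neighbours on each side; the Y-linked genes and the wider neighbourhood were added after values were seen. The FHL genes and all lists were chosen with earlier results of these data known. Protein sequences were not used here. Alternatives were further normalisation or centring, a filter on genes under percentile 25 of mean signal, averaged probe sets, another variance model, array weights, labelled sex and age, the replicate number as a block, the libraries labelled female alone, and each library left out.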

Additional observations from a re-analysis of the deposited data

How the results depend on the processing

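The Fhl1, Fhl2 and Fhl3 differences each moved by less than the SD within genotypes under 15 settings, though that of Fhl2 crossed 0, at 0.011 without CSN8fl/fl replicate 3. Their labelled sex and age differences and interactions kept their sign and did not pass under 6 settings each. The 210 genes past the threshold were 41 to 228 with 1 library left out, 97 among the libraries labelled female alone, and 202 to 298 under the 8 settings that kept all libraries; fewer samples were fitted in the first 2 cases. Samples with the same replicate number also shared labelled sex and age, and the labels do not say whether they were paired. Correlations of their deviations were 0.117, -0.0243 and 0.0381 for replicates 1 to 3. Both samples of replicate 1 correlated best with each other, but not every sample correlated best with its own number. With so few samples these values do not exclude a pairing. The replicate block gave 202 genes. Under the block Limd2 and Acta2 did not pass (adjusted p = 0.0892 and 0.0856), and of the goblet cell markers 1 in place of 5 passed.

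Of 1201 values of 81 other named genes under these settings, 1137 kept direction and side of the threshold, 40 no longer passed, 10 newly passed and 14 changed sign, none of them past the threshold. Those were Tgfbrap1 (0.0011 with arrays centred on their medians, 0.0046 without CSN8fl/fl replicate 1), Nck2 (0.017 without CSN8ΔIEC replicate 2, 0.025 without CSN8fl/fl replicate 2), Ecrg4 (-0.011 without CSN8ΔIEC replicate 1), and, without CSN8fl/fl replicate 2, Fhl4 (-0.091) and Map7d3 (-0.033). Without CSN8fl/fl replicate 3 they were Vil1 (0.0040), Adam3 (0.055), Med12l (0.018) and AI597479 (-0.062). With each library left out in turn the differences ranged from -0.091 to 0.47 (Fhl4), -0.16 to 0.0040 (Vil1), -0.45 to 0.055 (Adam3), -0.37 to 0.018 (Med12l), -0.033 to 0.17 (Map7d3), -0.062 to 0.26 (AI597479), -0.12 to 0.025 (Nck2) and -0.011 to 0.38 (Ecrg4). The other changes of sign, among libraries labelled female, were in Vil1 (0.044), Adam3 (0.036) and AI597479 (-0.059); the cause was not tested. Signals near the dimmest of the arrays, as for Fhl5 and several neighbours of Fhl1, limit what a difference can show.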

Other observations

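Among the 798 X-linked genes measured, 8 fell (1%) and 1 rose between genotypes, while 129 of 18674 autosomal genes (0.691%) fell. Besides Fhl1 and Ints6l, the X-linked decreases were Tspan6, a tetraspanin (difference -2.85, adjusted p = 0.0302), Bmx, a TEC-family tyrosine kinase (-2.46, adjusted p = 0.042), Armcx3 (-2.31, adjusted p = 0.00298), Grpr, the gastrin-releasing peptide receptor (-1.76, adjusted p = 0.00244), Tceal8 (-1.08, adjusted p = 0.0495) and Pcdh19, a protocadherin (-0.73, adjusted p = 0.0358). The increase was Pir, which encodes the iron-binding protein pirin, at 8.41 ± 0.24 in CSN8ΔIEC and 6.67 ± 0.21 in CSN8fl/fl (SD, n = 3 each; difference 1.74 ± 0.16, limma adjusted p = 0.00401). With each library left out in turn, Armcx3, Grpr, Ints6l and Pir passed every time, Tspan6 and Bmx passed 2 times of 6 (adjusted p up to 0.133 and 0.169, without CSN8ΔIEC replicate 1), Tceal8 1 time (up to 0.188, without that library) and Pcdh19 0 times (0.0654 to 0.129). The X-linked list was drawn up after its values were seen, and whether the share on the X chromosome differs from that of autosomes was not tested.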
